A study of Mus musculus with 16 samples.

Results

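Enterocytes rebuild dietary fat into triacylglycerol and ship it to the lymph in chylomicrons, and the transcripts of 10 genes that carry out this task were followed along the mouse small intestine before and after weaning. The genes were taken by name. Apob is the scaffold of the particle, and Mttp loads it with lipid. Apoa1, Apoa4, Apoc2 and Apoc3 coat the particle surface. Mogat2, Dgat1 and Dgat2 make the triacylglycerol, and Sar1b exports the particle from the endoplasmic reticulum. These are 10 of the 24421 genes in the count files, and all 10 had enough counts to be among the 13429 genes tested. The data are bulk RNA sequencing of EDTA-released epithelial cells from wild-type C57BL6/J mice. Segments of jejunum and ileum were taken from the same mouse, from 4 preweaning mice at postnatal day 6 (P6) and 4 postweaning mice at P36, which gave the groups P6 jejunum, P6 ileum, P36 jejunum and P36 ileum with 4 libraries each. Each age held males and females, the labels name no treatment, and the 2 ages came from different mice.

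In chylomicron assembly, a monoacylglycerol is first acylated to diacylglycerol and then to triacylglycerol, which the microsomal transfer protein Mttp loads onto the nascent Apob chain. Smaller apolipoproteins join the surface of the particle, where Apoc2 activates and Apoc3 restrains the lipase that unloads it in the tissues. The jejunum is known as the main site of fat absorption, and the suckling mouse lives on milk, a fat-rich diet. The comparisons below ask how these transcripts differed between jejunum and ileum at each age and between the ages in each region.

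All 16 libraries held 12159237 to 25947276 counted read pairs. Each of the 6 epithelial markers examined (Epcam, Cdh1, Vil1, Krt8, Krt20 and Alpi) was detected in every library, with a summed level between 5130 and 16220 CPM (counts per 1000000, scaled between libraries by the TMM method). The 5 hepatocyte markers (Alb, Uox, Cyp7a1, Cyp8b1 and Hpx) summed to at most 0.991 CPM in any library, and Cyp7a1 was at 0 in all of them. The liver is the other organ known for making these apolipoproteins. In P6 ileum replicate 2 the 7 smooth muscle and fibroblast markers summed to 363 CPM against 19.7 to 37.0 in the other 3 P6 ileum libraries. P36 ileum replicate 3 carried the highest Paneth cell sum of its group, 11418 CPM against 4076 to 6141. Marker sums of several cell types differed between the groups. The 5 goblet markers summed to 1634 to 2227 CPM in P6 jejunum, 1724 to 3924 CPM in P6 ileum, 10696 to 11933 CPM in P36 jejunum and 11483 to 21990.2 CPM in P36 ileum. The 4 Paneth markers summed to at most 61.3 CPM in any P6 library and to at least 3236 CPM in any P36 library. The 4 villus tip markers gave 302 to 455 CPM in P6 jejunum, 254 to 579.9 CPM in P6 ileum, 1868 to 2468 CPM in P36 jejunum and 1023 to 3235 CPM in P36 ileum. Of these 4, Krt20 and Ada were higher at P36 in both regions, and Nt5e and Slc28a2 were lower. Krt20 read 87.7 to 117 CPM in P6 jejunum and 1606 to 2256 CPM in P36 jejunum. Slc28a2 read 173 to 316 CPM and 54.8 to 113 CPM in these groups. The 6 leukocyte markers gave 416 to 499.6 CPM in P6 jejunum, 162 to 339 CPM in P6 ileum and at most 95.6 CPM at P36. Csf1r was the highest of these 6 in both P6 groups and Jchain in both P36 groups. Jchain was at 0 in P6 jejunum replicates 1 to 3, so the sum does not stand for each marker. The part of these cell types in the differences described below was not tested. Because these are bulk samples, fewer cells of a type and less RNA per cell cannot be told apart. Values without single libraries are given where they change a call or a size.

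The regional difference ran one way at both ages. At P6, 9 of the 10 genes were higher in the jejunum by the quasi-likelihood test of edgeR, with 0.05 as the limit for the Benjamini-Hochberg adjusted p, beside 11.1% of all tested genes. Apob was the exception. At P36 the same 9 genes were higher in the jejunum, against 8.3% of all tested genes, and Apob was again the exception. None was higher in the ileum at either age, which was the case for 14.8% of all tested genes at P6 and 7.8% at P36. The median log2 difference between jejunum and ileum over the 10 genes was 1.87 at P6 and 1.50 at P36, beside -0.05 and -0.04 over all tested genes. For each of the 9 genes the lowest jejunal value exceeded the highest ileal value at both ages, a separation seen in 15% of all tested genes at P6 and 13.5% at P36. Past a log2 fold change of 2 as well, 4 genes were counted at P6 (Mttp, Apoa4, Apoc2 and Apoc3, beside 2.2% of all tested genes) and 3 at P36 (Apoa4, Apoc2 and Apoc3, beside 2.06%). Without both P6 ileum replicate 2 and P36 ileum replicate 3, the counts were 9 at P6 and 7 at P36.

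The age difference split the genes. In the jejunum 6 of the 10 (Apob, Apoa1, Apoa4, Apoc2, Apoc3 and Dgat2) were lower at P36, against 26.9% of all tested genes, and Dgat1 alone was higher, against 24.7%. In the ileum 5 (Apob, Apoa1, Apoa4, Apoc3 and Dgat2) were lower at P36, against 30.1%, and Dgat1 was again the single gene that was higher, against 25.5%. Past a log2 fold change of 2, 3 were lower in the jejunum (Apoa4, Apoc3 and Dgat2, beside 8.59%) and 4 in the ileum (with Apob, beside 10%). The ages did not overlap for 7 lower genes (33%) and 1 higher gene (30.9%) in the jejunum, and for 4 lower genes (23.6%) and 1 higher gene (20.8%) in the ileum. Mttp, Mogat2 and Sar1b passed the test with age in neither region. The regional and age comparisons share libraries, so they are not independent of each other.

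**Figure D1:**
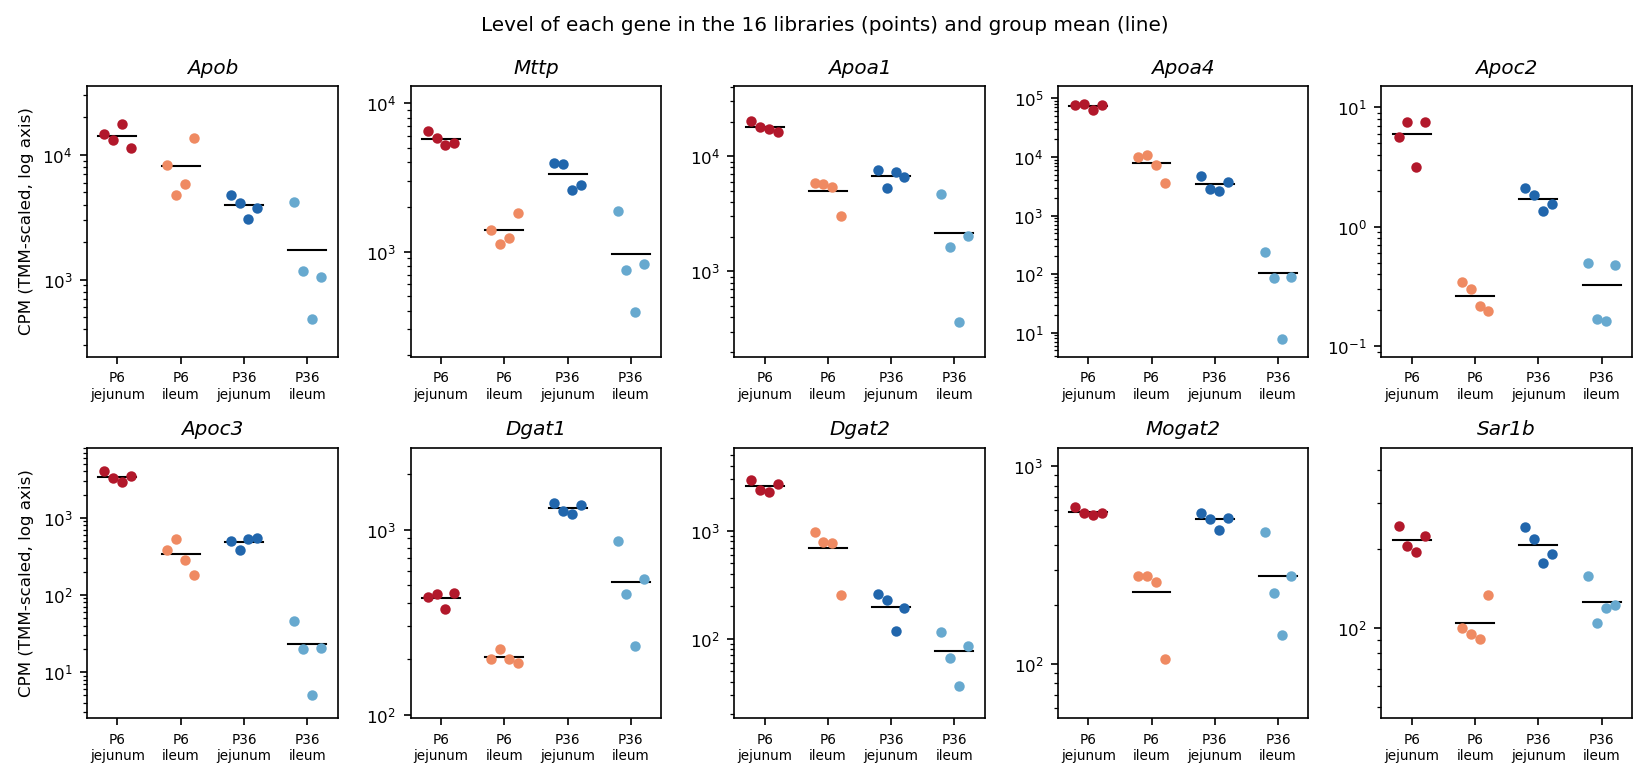
CPM of each gene (TMM-scaled, log axis, range set per gene) in the 4 libraries of each group, with points for libraries and a line for the group mean. Apoa4 spans from 81230 CPM in P6 jejunum to 7.76 CPM in P36 ileum, and Dgat1 is the one gene with its highest group mean in P36 jejunum.

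**Figure D2:**
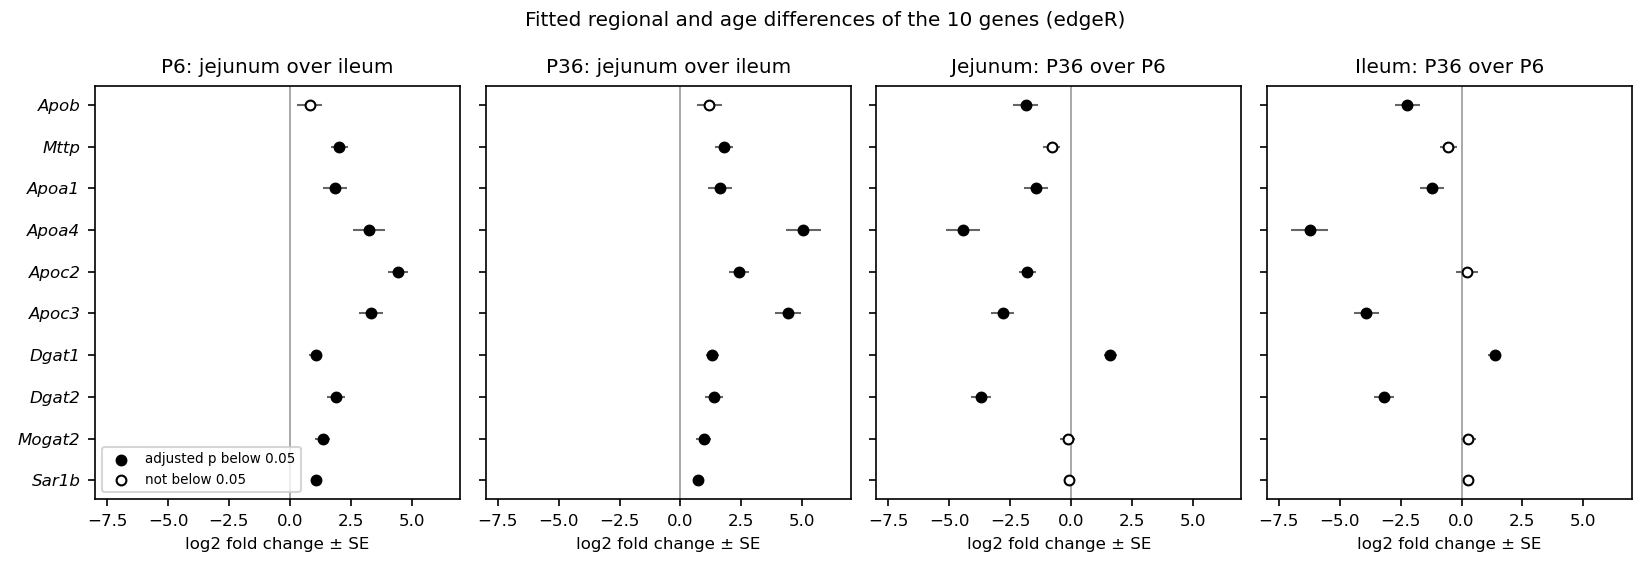
Fitted log2 fold change of each gene with its standard error (edgeR), by region at each age and by age in each region, with filled points where the adjusted p was below 0.05. All points of the regional panels lie to the right of 0, from 0.72 to 5.05, and the age panels run from -6.24 for Apoa4 to 1.62 for Dgat1.

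Together the 10 genes took a large part of the neonatal jejunal transcriptome. Their share of all counts was 10.8 ± 0.437% in P6 jejunum, 2.62 ± 0.262% in P6 ileum, 1.93 ± 0.189% in P36 jejunum and 0.603 ± 0.410% in P36 ileum (mean ± SD, n = 4 libraries). No 2 of the compared groups overlapped, and each of the 4 comparisons gave p = 0.0286 and an adjusted p of 0.0286 (2-sided exact permutation test, the smallest p that 4 libraries against 4 allow). Apoa4 alone was the most counted of all genes in the 4 P6 jejunum libraries, with 5.95 to 7.13% of their counts. In P6 ileum the most counted gene was Apoa4 in replicate 1 and Apob in replicate 4. Per kilobase of exon, Apoa4 ranked 2 and Apob 22 in these respective libraries. In P36 ileum Apoa4 had fallen to between 0.000873 and 0.0219% of the counts.

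Apob encodes the scaffold of the particle, a very long protein that stays with it until it is taken up. The gene lies at chr12:7977677-8016839 on the plus strand (mm10). It read 14619.8, 13165, 17776 and 11286 CPM in P6 jejunum replicates 1 to 4, and 8307, 4759.9, 5819.5 and 13510.2 CPM in P6 ileum. At P36 it read 4758, 4149.6, 3085 and 3750.0 CPM in jejunum and 4212, 1172, 483 and 1054 CPM in ileum. The jejunal and ileal ranges overlapped at both ages, since P6 ileum replicate 4 and P36 ileum replicate 1 reached jejunal levels. The regional difference did not pass the test at P6 (log2 difference 0.81, SE 0.50, adjusted p = 0.254) or at P36 (log2 difference 1.19, SE 0.50, adjusted p = 0.129). With the mouse as a block it passed at P36, with a log2 fold change of 1.64, SE 0.44 and adjusted p = 0.0286, and without P36 ileum replicate 1 the difference was 2.12 with adjusted p = 0.00109. Age separated the groups fully. Apob was 3.61-fold lower at P36 in the jejunum (log2 difference -1.85, SE 0.51, adjusted p = 0.0066) and 4.68-fold lower in the ileum (log2 difference -2.23, SE 0.52, adjusted p = 0.00183), and without P36 ileum replicate 1 the ileal log2 difference was -3.16.

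Mttp, the lipid transfer protein without which Apob is degraded, behaved differently from its partner. The gene lies at chr3:138089855-138143388 on the minus strand. Its levels were 6528, 5783, 5232 and 5382 CPM in P6 jejunum and 1401, 1126, 1230.1 and 1823 CPM in P6 ileum. At P36 they were 3927, 3908, 2585 and 2824 CPM in jejunum and 1866, 745, 390.3 and 828 CPM in ileum. Every jejunal library lay above every ileal library of the same age. Mttp was 4.11-fold higher in the jejunum at P6 (log2 difference 2.04, SE 0.36, adjusted p = 0.000583) and 3.46-fold higher at P36 (log2 difference 1.79, SE 0.36, adjusted p = 0.00257). Its change with age did not pass the test in the jejunum (log2 difference -0.79, SE 0.35, adjusted p = 0.068), although the 2 jejunal groups did not overlap, a separation toward lower levels at P36 found in 33% of all tested genes. In the fit of the 8 jejunal libraries alone this difference passed, with a log2 fold change of -0.78 and adjusted p = 0.00125. It also passed by DESeq2 (-0.78, adjusted p = 0.0447). The call was gained as well without P36 ileum replicate 1 (-0.79, adjusted p = 0.0114) or replicate 3 (-0.79, adjusted p = 0.0232). Without both P6 ileum replicate 2 and P36 ileum replicate 3 the value was -0.75 with adjusted p = 0.0324. In the ileum the value was -0.54 (SE 0.35, adjusted p = 0.195), and it passed when P36 ileum replicate 1 was left out, at -1.09 with adjusted p = 0.00284.

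The ratio of Mttp to Apob counts per kilobase of exon was taken within each library, so that it does not depend on scaling between libraries. It was 1.41, 1.39, 0.928 and 1.50 in P6 jejunum and 0.532, 0.746, 0.667 and 0.425 in P6 ileum. At P36 it was 2.60, 2.97, 2.64 and 2.37 in jejunum and 1.40, 2.01, 2.55 and 2.48 in ileum. Mttp transcripts were thus fewer than Apob transcripts per kilobase in all 4 P6 ileum libraries and more numerous in all 8 P36 libraries. The log2 ratio was 1.15 higher in jejunum than ileum at P6, 1.04 higher at P36 than P6 in jejunum and 1.82 higher in ileum (each p = 0.0286, adjusted 0.0361 over the 24 ratio tests, 2-sided exact permutation test). Without P6 ileum replicate 4 the P6 regional value was 1.00 and no longer passed (adjusted p = 0.0686, exact permutation test), although the groups still did not overlap. The regional difference at P36, 0.36 on the log2 scale, was within the spread of the libraries (p = 0.143, adjusted 0.163, exact permutation test).

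Among the surface apolipoproteins, Apoa1, Apoc3 and Apoa4 lie side by side on chromosome 9. Apoa1 occupies chr9:46228630-46230469 on the plus strand, Apoc3 chr9:46233050-46235636 on the minus strand and Apoa4 chr9:46240844-46243458 on the plus strand, with gaps of 2580 and 5207 bases between them. Apoa4, a lipid-binding protein of the chylomicron surface, had the widest range of the 10 genes. It read 78301, 81230.2, 63639 and 77753 CPM in P6 jejunum and 9809, 10821, 7362 and 3543 CPM in P6 ileum. After weaning the values were 4655, 2799, 2668 and 3696 CPM in jejunum and 235, 85.1, 7.76 and 89.7 CPM in ileum. The groups kept the order P6 jejunum, P6 ileum, P36 jejunum and P36 ileum, with the ranges of P6 ileum and P36 jejunum overlapping. Apoa4 was 9.54-fold higher in jejunum than ileum at P6 (log2 difference 3.25, SE 0.66, adjusted p = 0.0019) and 33.1-fold higher at P36 (log2 difference 5.05, SE 0.72, adjusted p = 0.00018). With age it fell 21.8-fold in the jejunum (log2 difference -4.44, SE 0.70, adjusted p = 6.68e-05) and 75.5-fold in the ileum (log2 difference -6.24, SE 0.77, adjusted p = 4.72e-06). P36 ileum replicate 1 moved these values most, and without it the P36 regional difference was 5.83 and the ileal age difference -7.01 on the log2 scale.

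Promoter sequences are shown for Apoa4, the gene with the largest differences between the ages and between the P36 regions, and for Apob, the one without a called regional difference, because a motif match falls in both. RefSeq promoter windows (GRCm38.p6) of 250 bases before to 50 after the start were at hand for Apob, Mttp, Apoa1, Apoa4, Apoc2 and Sar1b, and Apoc3, Dgat1, Dgat2 and Mogat2 are named only. The 250 bases before the start are printed 5′ to 3′ on the gene's strand, and capitals mark the match to CAAAGNNCA, the core letters of sites for the enterocyte factor Hnf4, read on either strand. Apoa4 covers chr9:46240594-46240843 and Apob chr12:7977427-7977676, both on the plus strand.
Apoa4: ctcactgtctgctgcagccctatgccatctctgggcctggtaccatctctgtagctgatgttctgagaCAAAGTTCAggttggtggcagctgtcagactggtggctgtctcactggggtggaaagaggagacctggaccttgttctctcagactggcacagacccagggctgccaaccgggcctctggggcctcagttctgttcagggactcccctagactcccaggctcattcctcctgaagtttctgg
Apob: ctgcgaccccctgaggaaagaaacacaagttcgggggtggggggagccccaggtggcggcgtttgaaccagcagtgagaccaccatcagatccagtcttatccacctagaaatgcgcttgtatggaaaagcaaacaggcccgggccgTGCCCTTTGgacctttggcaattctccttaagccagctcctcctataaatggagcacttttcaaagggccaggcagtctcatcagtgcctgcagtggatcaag
The match runs from -182 to -174 in Apoa4 on the gene's strand and from -103 to -95 in Apob on the opposite strand. The other 4 windows held none, and 6.36% of all 32851 windows held at least 1. TATAAA was found in Apob at -60 to -55 (13.6% of all windows), AGGTCA in Apoc2 at -115 and 43 (16.3%), GTTAAT in Apoc2 at -89 (7.1%) and CCAAT in Sar1b at -67 on the opposite strand (37.4%). TGACGTCA (1.79%) and AGATAAG (3.04%) matched none of the 6. These are matches of letters in a window and not measured binding.

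Apoa1, the chief protein of high density lipoprotein and a component of new chylomicrons, changed less. It read 20404, 18094, 17241 and 16195 CPM in P6 jejunum and 5889, 5708, 5381 and 3003 CPM in P6 ileum. In P36 tissue the gene read 7646, 5298, 7303 and 6552 CPM in jejunum and 4655, 1642, 362 and 2020.0 CPM in ileum. The jejunal libraries lay above the ileal ones at both ages, with the single value of 362 CPM in P36 ileum replicate 3 far below the rest. Apoa1 was 3.60-fold higher in jejunum at P6 (log2 difference 1.85, SE 0.49, adjusted p = 0.0119) and 3.09-fold higher at P36 (log2 difference 1.63, SE 0.49, adjusted p = 0.0335). The P36 call did not survive every left-out library, since leaving out any 1 of 5 P36 libraries (jejunum replicates 1, 3 and 4, ileum replicates 2 and 4) gave adjusted p-values from 0.0619 to 0.094, while without ileum replicate 1 the log2 difference was 2.32 with adjusted p = 0.00182. The call was also lost in the fit of the 8 P36 libraries alone (adjusted p = 0.0755). With age Apoa1 was 2.68-fold lower in jejunum (log2 difference -1.42, SE 0.49, adjusted p = 0.0227) and 2.30-fold lower in ileum (log2 difference -1.20, SE 0.49, adjusted p = 0.0459), where the ages overlapped. The jejunal call was lost without P36 jejunum replicate 2, 3 or 4 (adjusted p up to 0.0614). The ileal call was lost in 13 of the 16 fits lacking 1 library, with adjusted p from 0.00196 to 0.143 over all alternatives. It was also lost with median-of-ratios (RLE) scaling (adjusted p = 0.0518) and with no filter on low counts (0.051). The same held for the 8 ileal libraries alone (0.143) and without both P6 ileum replicate 2 and P36 ileum replicate 3 (0.0804).

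Apoc3, the inhibitor of lipoprotein lipase, had a profile over the 16 libraries nearer to that of Apoa4 (root mean square difference 1.22 on the log2 scale) than to that of Apoa1 (1.47). It read 4069, 3262, 2912 and 3441 CPM in P6 jejunum and 377, 530.3, 285 and 179 CPM in P6 ileum. The P36 levels were 496, 376, 536 and 550.3 CPM in jejunum and 46.2, 20.1, 5.02 and 20.3 CPM in ileum. P6 ileum and P36 jejunum overlapped, and every other pair of groups was apart. Apoc3 was 9.98-fold higher in jejunum than ileum at P6 (log2 difference 3.32, SE 0.49, adjusted p = 0.000125) and 21.4-fold higher at P36 (log2 difference 4.42, SE 0.51, adjusted p = 2.71e-05). It was 6.99-fold lower at P36 in jejunum (log2 difference -2.81, SE 0.48, adjusted p = 0.000134) and 15.0-fold lower in ileum (log2 difference -3.91, SE 0.50, adjusted p = 7.78e-06). Without P36 ileum replicate 1 the P36 regional value was 5.02 and the ileal age value -4.51.

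Ratios within libraries showed that the 3 neighbouring genes did not change in step. The ratio of Apoa4 to Apoa1 per kilobase was 2.28, 2.66, 2.19 and 2.85 in P6 jejunum and 0.988, 1.12, 0.811 and 0.700 in P6 ileum. At P36 it was 0.361, 0.313, 0.217 and 0.335 in jejunum and 0.0300, 0.0307, 0.0128 and 0.0264 in ileum. Apoa4 was therefore the more abundant of the 2 transcripts in the neonatal jejunum and the minor one in every P36 library, with no overlap between any 2 of the 4 groups. On the log2 scale the ratio was 1.48 higher in jejunum than ileum at P6 and 3.67 higher at P36, and the difference of P36 from P6 was -3.04 in jejunum and -5.24 in ileum (each p = 0.0286, adjusted 0.0361, 2-sided exact permutation test). The ratio of Apoc3 to Apoa1 ran the same way, 1.53 higher in jejunum at P6, 2.68 higher at P36, and different by -1.38 in jejunum and -2.53 in ileum with age (each p = 0.0286, adjusted 0.0361, exact permutation test).

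**Figure D3:**
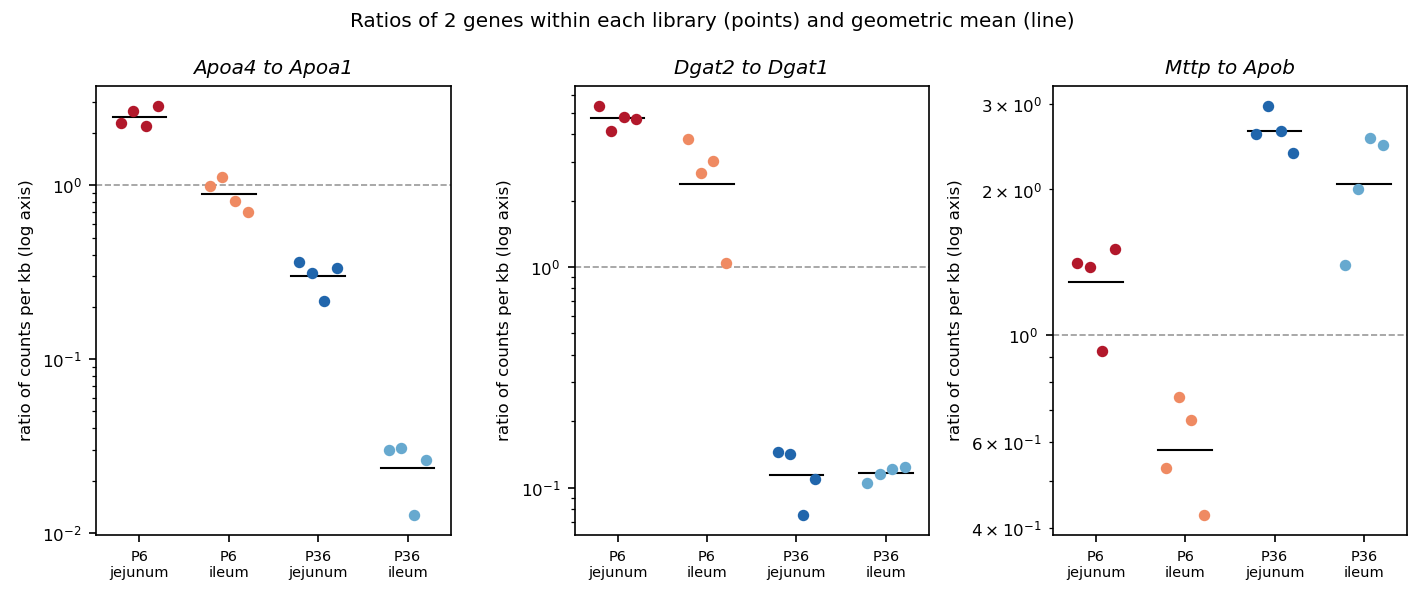
Ratios of counts per kilobase of exon within each library (points, log axes) and their geometric mean (line), for Apoa4 to Apoa1, Dgat2 to Dgat1 and Mttp to Apob, with a dashed line at equal levels. Apoa4 to Apoa1 descends over the 4 groups from 2.85 to 0.0128, and Dgat2 to Dgat1 is above 1 in all P6 libraries and at most 0.144 in all P36 libraries.

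Apoc2, the activator of lipoprotein lipase, was counted at far lower levels, and its values have a counting limit. The gene lies at chr7:19671579-19677941 on the minus strand, and 488 of its 813 exon bases are shared with the read-through gene Apoc4-apoc2, so read pairs falling there could be assigned to neither gene. Apoc4-apoc2 had 0 counts in every library. With 325 bases unshared, Apoc2 had 130, 168, 60 and 156 counts in P6 jejunum, 7, 7, 4 and 4 in P6 ileum, 36, 42, 30 and 29 in P36 jejunum and 9, 3, 4 and 6 in P36 ileum. These counts cannot be compared with the level of another gene, but comparisons of Apoc2 between groups stand on the same bases throughout. Apoc2 was 21.9-fold higher in jejunum at P6 (log2 difference 4.45, SE 0.41, adjusted p = 1.46e-06) and 5.36-fold higher at P36 (log2 difference 2.42, SE 0.41, adjusted p = 0.000662). It was 3.46-fold lower at P36 in jejunum (log2 difference -1.79, SE 0.35, adjusted p = 0.000469), while its ileal values of 0.196 to 0.346 CPM at P6 and 0.163 to 0.498 CPM at P36 overlapped (log2 difference 0.23, SE 0.46, adjusted p = 0.75).

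Apoc2 was also the one gene of the 10 called in the test of whether the regional difference itself changed with age. Its log2 difference between jejunum and ileum was 2.03 larger at P6 than at P36 (SE 0.58, adjusted p = 0.0397), in a test that 3.68% of all tested genes passed in this direction (1.12% with a log2 difference past 2) and 5.01% in the other, where none of the 10 genes did. A count of 1 in 10 is near these shares, and a gene that did not pass is not shown to be unchanged. The Apoc2 call was lost with no filter on low counts (adjusted p = 0.0507) and in 11 of the 16 fits lacking 1 library, and the adjusted p over all alternatives ran from 0.0184 to 0.091. The same test did not pass for Apoa4, -1.79 (SE 0.87, adjusted p = 0.234), or for Apoc3, -1.10 (SE 0.63, adjusted p = 0.32), whose regional differences were larger at P36. For the other 7 genes the change in the regional difference lay between -0.37 for Apob and 0.52 for Dgat2, and none of them passed. The ratio of Apoc3 to Apoc2 within libraries was 2.34 higher in jejunum than ileum at P36 on the log2 scale, and different by -1.09 in jejunum and -4.33 in ileum from P6 to P36 (each p = 0.0286, adjusted 0.0361, exact permutation test). The jejunal call was lost without P36 jejunum replicate 1 or 2 or P6 jejunum replicate 1 or 3, with values from -1.01 to -0.89. The jejunal ages still did not overlap in this ratio. The regional difference of the ratio at P6, -0.90, did not pass (p = 0.0571, adjusted 0.0686, exact permutation test), but passed without P6 jejunum replicate 3, at -1.10 (adjusted p = 0.0381).

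The triacylglycerol synthesis genes showed opposite changes with age in the 2 enzymes of the final step. Dgat1 and Dgat2 both turn diacylglycerol into triacylglycerol but belong to unrelated protein families. Dgat2, at chr7:99153663-99182713 on the minus strand, read 2957, 2385, 2298 and 2714 CPM in P6 jejunum and 972, 783, 769.9 and 254 CPM in P6 ileum. By P36 the readings were 257, 227, 118 and 192 CPM in jejunum and 116, 66.5, 36.6 and 86.2 CPM in ileum. The lowest P6 value, 254 CPM in ileum replicate 4, lay just under the highest P36 value, 257 CPM in jejunum replicate 1, and within each region the ages did not overlap. Dgat2 was 13.0-fold lower at P36 in jejunum (log2 difference -3.70, SE 0.41, adjusted p = 1.76e-06) and 9.10-fold lower in ileum (log2 difference -3.19, SE 0.41, adjusted p = 6.9e-06).

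Dgat1, at chr15:76502015-76511818 on the minus strand, rose instead. It read 431, 448, 373 and 453 CPM in P6 jejunum and 199, 228, 199 and 191 CPM in P6 ileum. The postweaning values were 1389.9, 1254, 1217 and 1364 CPM in jejunum and 867, 450.0, 236 and 544 CPM in ileum. Within each region all P36 libraries lay above all P6 libraries, narrowly in the ileum, where the lowest P36 value was 236 and the highest P6 value 228 CPM. Dgat1 was 3.06-fold higher at P36 in jejunum (log2 difference 1.62, SE 0.27, adjusted p = 0.000105) and 2.57-fold higher in ileum (log2 difference 1.36, SE 0.27, adjusted p = 0.000445), and these calls were kept in all the alternatives run. Both enzymes were higher in jejunum than ileum. For Dgat1 the regional log2 difference was 1.06 (SE 0.26, adjusted p = 0.00746) at P6 and 1.32 (SE 0.27, adjusted p = 0.00288) at P36. For Dgat2 it was 1.90 (SE 0.38, adjusted p = 0.0018) at P6 and 1.38 (SE 0.38, adjusted p = 0.0209) at P36, and the P36 value lost its call without ileum replicate 2 or 3 or jejunum replicate 1 or 2 (adjusted p from 0.0548 to 0.0705).

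The ratio of Dgat2 to Dgat1 per kilobase turned over with age. It was 5.34, 4.15, 4.80 and 4.67 in P6 jejunum and 3.81, 2.68, 3.01 and 1.04 in P6 ileum. At P36 it was 0.144, 0.141, 0.0754 and 0.110 in jejunum and 0.105, 0.115, 0.121 and 0.124 in ileum. Dgat2 transcripts outnumbered Dgat1 transcripts in all 8 P6 libraries and were at most 0.144 of them in all 8 P36 libraries. The log2 ratio differed by -5.37 between the ages in jejunum and by -4.36 in ileum, and it was 0.99 higher in jejunum than ileum at P6 (each p = 0.0286, adjusted 0.0361, 2-sided exact permutation test). The P6 regional call was lost when any 1 P6 jejunum library was left out, with values from 0.93 to 1.05. The groups still did not overlap. An exact test of groups of unequal size can place such groups above the smallest p, so the lost call does not show a weaker separation. At P36 the regions differed by -0.02 (p = 0.971, adjusted 0.971, exact permutation test), within the spread of the libraries.

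Mogat2, the intestinal monoacylglycerol acyltransferase that feeds both Dgat enzymes, lies at chr7:99219084-99238611, 36.37 kb from Dgat2 and on the same strand. Unlike its neighbour it passed no test with age. It read 623, 579.9, 571 and 584 CPM in P6 jejunum and 280.2, 278, 259 and 106 CPM in P6 ileum. At P36 the levels were 582, 545, 479 and 551 CPM in jejunum and 466, 228, 140.3 and 278 CPM in ileum. Its P6 and P36 values overlapped in each region, with log2 fold changes of -0.13 (SE 0.31, adjusted p = 0.756) in jejunum and 0.27 (SE 0.31, adjusted p = 0.481) in ileum. Mogat2 was 2.55-fold higher in jejunum at P6 (log2 difference 1.35, SE 0.32, adjusted p = 0.00492) and 1.94-fold higher at P36 (log2 difference 0.95, SE 0.31, adjusted p = 0.0491). The P36 call sits at the threshold and was lost in 14 of the 16 fits lacking 1 library, with adjusted p from 0.00478 to 0.126 over all alternatives. It was also lost with median-of-ratios (RLE) scaling (adjusted p = 0.0548) and with no filter on low counts (0.0582). The same held for the 8 P36 libraries alone (0.0507) and without both P6 ileum replicate 2 and P36 ileum replicate 3 (0.121).

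Sar1b, the GTPase that starts the coat of the transport vesicles leaving the endoplasmic reticulum, lies at chr11:51763663-51791953 on the plus strand. It read 244, 206, 195 and 224 CPM in P6 jejunum and 100.3, 94.5, 90.4 and 133 CPM in P6 ileum. In the postweaning mice it read 243, 218, 177 and 191 CPM in jejunum and 157, 105, 119 and 122 CPM in ileum. Jejunum exceeded ileum in every mouse, and the ages overlapped. The regional difference was 1.05 (SE 0.16, adjusted p = 0.000173) at P6 and 0.72 (SE 0.16, adjusted p = 0.00552) at P36 on the log2 scale. With age it was -0.07 (SE 0.16, adjusted p = 0.753) in jejunum and 0.27 (SE 0.16, adjusted p = 0.166) in ileum, and the ileal value passed without P6 ileum replicate 4, at 0.41 with adjusted p = 0.021. The paralog Sar1a, which serves general secretion, gave a reference within each library. The ratio of Sar1b to Sar1a per kilobase was 5.53, 5.48, 4.48 and 5.23 in P6 jejunum and 2.54, 2.40, 2.34 and 2.87 in P6 ileum, a log2 difference of 1.03. At P36 it was 5.28, 4.74, 4.14 and 3.93 in jejunum and 3.61, 2.20, 2.22 and 2.43 in ileum, a log2 difference of 0.81 (both p = 0.0286, adjusted 0.0361, 2-sided exact permutation test). The P36 call was lost when any 1 P36 jejunum library was left out, with values from 0.73 to 0.88, although the groups still did not overlap.

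The 10 genes did not vary together to the same degree in all groups. In P6 jejunum the highest library exceeded the lowest by a median of 1.27-fold over the 10 genes, beside 1.29 over all tested genes. In P36 jejunum the median was 1.49 against 1.28, and in P6 ileum 2.30 against 1.94. In P36 ileum it was 4.23 against 1.58, with the widest gap, 30.3-fold, in Apoa4. In that group replicate 1 was highest for all 10 genes and replicate 3 lowest for 9 of them, with Sar1b the exception. Of the 4 villus tip enterocyte markers, replicate 1 was highest for all (Ada, Nt5e, Slc28a2 and Krt20) and replicate 3 lowest for 3, with Nt5e lowest in replicate 2. Their summed level was 3235 CPM in replicate 1, 1538 in replicate 2, 1023 in replicate 3 and 1888 in replicate 4, most of it Krt20. Of the 6 epithelial markers, replicate 1 was highest and replicate 3 lowest for 5, from Cdh1 at 1064 and 921 CPM to Alpi, the alkaline phosphatase of the enterocyte brush border, at 550.2 and 43.9 CPM. Krt8 went the other way, at 4930.0 CPM in replicate 1 and 6101 CPM in replicate 3, the highest of the group. The Paneth cell sum was 4305 and 11418 CPM in these 2 libraries. The part of these differences in the spread of the 10 genes was not tested.

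In P6 ileum the library at the edge was replicate 4. It was lowest for 7 genes (Apoa1, Apoa4, Apoc2, Apoc3, Dgat1, Dgat2 and Mogat2) and highest for Apob, Mttp and Sar1b. Its Mogat2 level of 106 CPM stood well below the 259 to 280.2 CPM of the other 3. The 6 epithelial markers summed to 5130 CPM in this library against 7919 to 8415 in the others, and it was lowest of the 4 for Epcam, Vil1, Krt8 and Alpi. The widest gap was in Krt8, at 256 CPM against 1113 to 1331, while Cdh1 was highest in this library, at 867 CPM against 792 to 848, and Krt20 lay within the others. Its sums were the highest of the group for villus tip (579.9 CPM against 254 to 446), stem and crypt (549.7 CPM against 241 to 378) and Paneth markers (61.3 CPM against 31.9 to 37.8), and the lowest for goblet markers (1724 CPM against 3339 to 3924). Of the villus tip markers only Slc28a2 was highest in this library, at 423 CPM against 151 to 277. Krt20 and Nt5e lay within the others, and Ada was lowest. Of the stem and crypt markers Olfm4, at 355 CPM against 77.2 to 220, and Mki67 were highest in this library. Lgr5 lay within the others, and Ascl2 and Smoc2 were lowest. The part of these markers in the levels of the 10 genes was not tested.

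**Figure D4:**
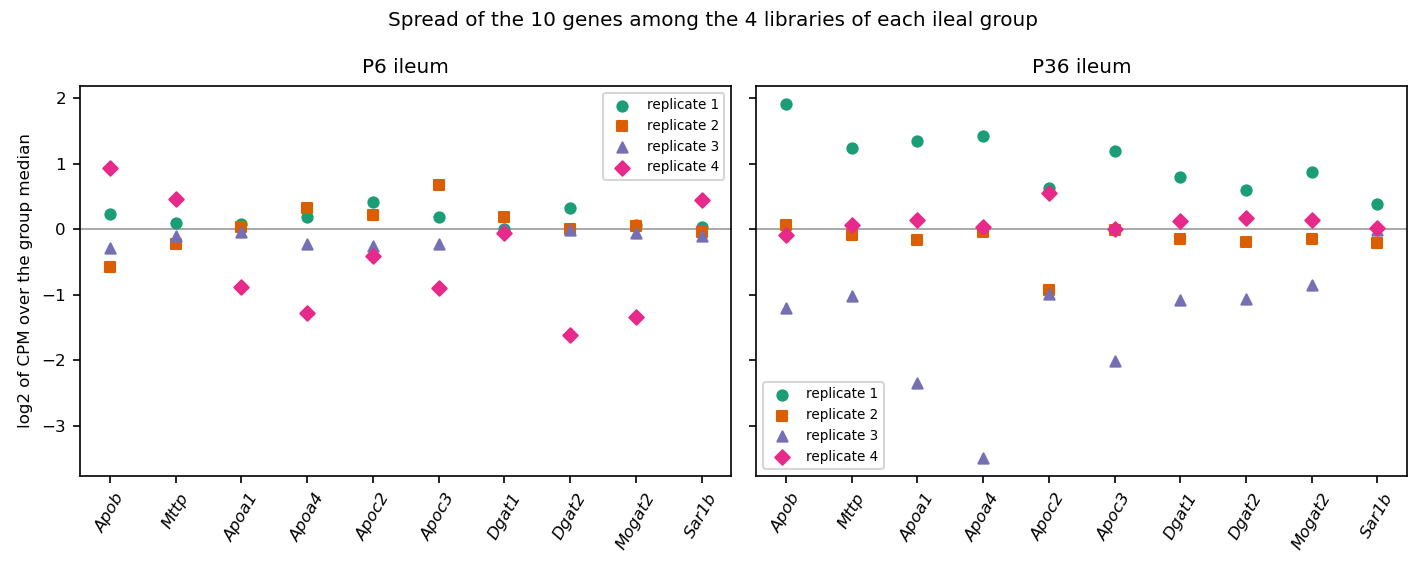
Each ileal library's CPM over the median of its group, on the log2 scale, for the 10 genes at P6 (left) and P36 (right). In P36 ileum replicate 1 lies on top for every gene and replicate 3 at the bottom for 9, and in P6 ileum replicate 4 lies lowest for 7 genes and highest for Apob, Mttp and Sar1b.

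Among 8 other apolipoproteins, 6 were tested and 3 of them were higher in P6 jejunum than ileum (Apoc1, Apoa2 and Apoc4), beside 11.1% of all tested genes. None passed at P36. Apoc1, another small exchangeable apolipoprotein, had 336, 218, 126 and 426 counts in P6 jejunum and 100, 72, 64 and 17 in P6 ileum. At P36 it had 1, 3, 1 and 2 counts in jejunum and 14, 2, 3 and 9 in ileum, close to none. Apoc4 had 33, 30, 23 and 39 counts in P6 jejunum and 1 count over the 4 P6 ileum libraries, and shares 156 of its 518 exon bases with Apoc4-apoc2. Apoa2 rested on 2 libraries, with 312, 11, 98 and 6 counts in P6 jejunum and 1, 7, 0 and 1 in P6 ileum. Apom, which carries sphingosine phosphate, was lower at P36 in both regions, with 72, 128, 64 and 118 counts in P6 jejunum and 3, 5, 9 and 4 in P36 jejunum. With age, 4 of the 6 were lower in jejunum and Apoh was higher, beside 26.9% and 24.7% of all tested genes, while in ileum Apoc1 and Apom were lower and Apoc4 was higher on 2, 3, 2 and 1 counts at P36.

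In the wider triacylglycerol synthesis pathway 10 genes were tested, of which 3 were higher in jejunum than ileum at P6 (Agpat2, Acsl5 and Agpat3) and 2 at P36 (Acsl5 and Agpat3), with none lower, beside 11.1% of all tested genes higher at P6 and 8.3% at P36. Agpat3, an acyltransferase of the glycerol phosphate route, fell from 709, 679, 672 and 667 CPM in P6 jejunum to 134, 109.9, 111 and 123 CPM in P36 jejunum (log2 difference -2.51, SE 0.26, adjusted p = 8.06e-07). Acsl3, an acyl-CoA synthetase of the endoplasmic reticulum and lipid droplets, fell from a range of 373 to 473 CPM to one of 15.9 to 26.4 CPM in the same groups (log2 difference -4.38, SE 0.26, adjusted p = 1.17e-09), with 10.6% of its exon bases shared with Utp14b. With age 5 of the 10 were lower and 1 higher in jejunum, where 26.9% and 24.7% of all tested genes were, and 6 were lower and 3 higher in ileum, where 30.1% and 25.5% were.

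Of 14 particle lipidation and lipid droplet genes, 8 were higher in jejunum at P6 and 8 at P36, beside the same 11.1% and 8.3% of all tested genes, and none was lower. Plin2, the coat protein of lipid droplets, read 915 to 1114 CPM in P6 jejunum and 64.7 to 93.0 CPM in P36 jejunum (log2 difference -3.69, SE 0.20, adjusted p = 3.81e-10). Cidec, which promotes droplet growth, read 339 to 402 and 29.5 to 54.9 CPM in these groups (log2 difference -3.14, SE 0.44, adjusted p = 2.04e-05). In ileum the age difference was -3.47 (adjusted p = 8.56e-10) for Plin2 and -3.26 (adjusted p = 1.59e-05) for Cidec on the log2 scale. Of all tested genes outside the 10, Cidec had the profile most like that of Dgat2 over the 16 libraries, with a root mean square difference of 0.45 on the log2 scale, a pair singled out after its values were seen. Abhd5, the coactivator of the droplet lipase Pnpla2, had a mean of 124 ± 11.8 CPM in P6 jejunum and 21.2 ± 2.6 CPM in P36 jejunum (SD, n = 4 each, log2 difference -2.54, SE 0.17, adjusted p = 6.73e-09). The widest age difference of the list in jejunum ran the other way, in the carboxylesterase Ces1d, with 2, 1, 1 and 1 counts in P6 jejunum and 46, 36, 50 and 36 in P36 jejunum (log2 difference 5.03, SE 0.47, adjusted p = 2.19e-07), a fold that rests on these few P6 counts. In ileum Ces1d had 1, 2, 5 and 4 counts at P6 and 10, 8, 17 and 6 at P36, and its regional difference at P6 minus that at P36 was -3.18 on the log2 scale (SE 0.67, adjusted p = 0.00691). Its relative Ces2e, named after its values were seen, was also higher in P36 than in P6 jejunum, by 1.38 on the log2 scale (adjusted p = 1.04e-05). With age 5 of the 14 were lower and 2 higher in jejunum, and 5 lower and 3 higher in ileum, beside the shares of all tested genes given for the pathway above.

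Of 15 genes tested for export from the endoplasmic reticulum, 8 were higher in jejunum at P6 and 7 at P36, again beside 11.1% and 8.3% of all tested genes, and none was lower. Sec24d, a cargo-binding subunit of the same vesicle coat as Sar1b, was the sharpest of them, at 645, 613, 633 and 586 CPM in P6 jejunum against 96.7, 85.2, 93.5 and 81.4 CPM in P6 ileum (log2 difference 2.80, SE 0.14, adjusted p = 3.17e-09). In P36 jejunum it read 205 to 307 CPM and in P36 ileum 90.1 to 117 CPM. Its regional difference was larger at P6 than at P36 by 1.48 on the log2 scale (SE 0.19, adjusted p = 0.000176). With age 5 of the 15 were lower and none higher in jejunum, and 5 lower and 3 higher in ileum, and the shares of lower genes are near those of all tested genes (26.9% and 30.1%).

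Of 14 genes for Apob mRNA editing and transcription, 2 were higher and 1 lower in jejunum at P6, and 4 higher and 2 lower at P36. Of all tested genes 11.1% were higher and 14.8% lower at P6, and 8.3% and 7.8% at P36, so the P6 counts are near the background. Creb3l3, a membrane-bound transcription factor of liver and intestine, read 997, 1000.1, 904 and 942 CPM in P6 jejunum and 441, 493, 331 and 249 CPM in P6 ileum. The older mice gave 476, 456, 326 and 372 CPM in jejunum and 111, 21.9, 2.08 and 23.2 CPM in ileum. Replicate 1 was highest and replicate 3 lowest in P36 ileum, as for the apolipoproteins. Its regional difference passed at P36 (log2 difference 3.37, SE 0.71, adjusted p = 0.00404) and not at P6 (log2 difference 1.34, SE 0.66, adjusted p = 0.149). The change of that difference with age did not pass (log2 difference -2.02, adjusted p = 0.205). Nr1h4, the bile acid receptor, was lower in P36 jejunum at 49.1 to 58.3 CPM than in P36 ileum at 215 to 233 CPM. Ppargc1a, a coactivator of mitochondrial metabolism, read 108 to 129 CPM in P36 jejunum against 18.2 to 35.8 CPM in P36 ileum (log2 difference 2.28, SE 0.43, adjusted p = 0.00174) and a mean of 25.9 ± 12.6 CPM in P6 jejunum (SD, n = 4, log2 difference 2.20, SE 0.43, adjusted p = 0.000476). Its regional difference at P6 minus that at P36 was -2.21 on the log2 scale (SE 0.59, adjusted p = 0.0297). Hnf4g, a nuclear receptor of enterocytes, rose in jejunum from a range of 139 to 198 CPM to one of 736 to 973 CPM with age (log2 difference 2.37, SE 0.25, adjusted p = 1.08e-06). With age 4 of the 14 were higher and 2 lower in jejunum, where 24.7% and 26.9% of all tested genes were. In ileum 4 were higher and 2 lower, where 25.5% and 30.1% were.

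Likeness of profile was measured as the root mean square difference between log2 CPM values centred on each gene's mean over the 16 libraries. The gene outside the 10 closest to Apob was Ifit1bl2 (0.30), followed by Gramd1b (0.37) and 4930581F22Rik (0.41). For Mttp it was Osbpl3 (0.25), followed by Acsl5 (0.29) and Osbpl6 (0.36), of which Acsl5 activates fatty acids for triacylglycerol synthesis. For Apoa4 the nearest outside the 10, Gpr157, Gpr151 and Slc34a3, lay 1.33, 1.33 and 1.37 away, farther than Apoc3 at 1.22. Within the 10, Mogat2 and Sar1b were the most alike (0.51) and Apoa4 and Dgat1 the least (4.00). The libraries share their tissue and age groups, so these values describe patterns and carry no test.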

How the data were processed

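RNA was sequenced from jejunal and ileal epithelium of 8 mice, 4 at each age. The authors trimmed reads with Trimmomatic 0.38, mapped them with STAR against the mm10 genome and assigned read pairs to genes by featureCounts (Subread 1.6.3) on the reverse strand, leaving out pairs that overlap several genes, and the deposited values are these raw counts. The STAR version is given differently by different sources and is left out. Groups came from the sample labels. Replicates are separate mice, so p-values measure the spread between mice. The names of the P6 mice share 1 stem in replicates 1 and 3 and another in replicates 2 and 4. The labels do not say what a stem stands for, so independence of the 4 P6 mice is not shown. The 2 segments of an age share their mouse, and replicate numbers are names given in accession order. No 2 replicates agreed within sampling noise.

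Counts were fitted over all 16 libraries with 4 group means in edgeR 4.0.16 (R 4.3.3, TMM scaling, filterByExpr, quasi-likelihood test), which left 13429 of 24421 genes, with Benjamini-Hochberg adjustment over all of them, a limit of 0.05 and, for some counts, a log2 minimum of 2. The fit was tested on simulated counts. Same-mouse libraries deviated together from their group means (r from 0.157 to 0.391 at P6 and 0.240 to 0.347 at P36, across genes), so the mouse was a block in 1 alternative for the regional contrasts and the interaction. Jejunum and ileum of different P6 mice gave r from 0.0082 to 0.12 within a name stem and from -0.284 to -0.073 across stems. No fit took the stem into account. CPM were scaled by TMM, and ratios of different genes were taken per kilobase of exon. Statements on the most counted gene or the highest marker of a list do not allow for gene length. Within-library ratios took a pseudocount of 0.5 on each count. They were compared, like shares of counts, by 2-sided exact permutation tests, whose smallest p is 0.0286, over 24 ratio tests and 4 share tests. With 1 library left out the groups are unequal, and groups that do not overlap can then give a p above the smallest. Such a lost call does not show overlap. Alternatives were RLE scaling and library totals, no filter on low counts or a mean CPM of at least 1, sex as a covariate, only the 8 libraries of a contrast, DESeq2 1.42.0, a pseudocount of 5 for ratios, another denominator for shares, sign flips within mice (smallest p 0.125), and each library left out. After the data were seen, a fit without both P6 ileum replicate 2 and P36 ileum replicate 3 was added.

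All 10 genes are named. Up to 4 genes per contrast were named from each related list where they passed the test with a log2 change past 2, smallest adjusted p first, and Sar1a was used in a ratio. Gene lists and the 10 genes themselves were chosen with earlier results of these data known. Figures were drawn with matplotlib 3.10.9.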

Additional observations from a re-analysis of the deposited data

Results flagged for a closer look

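Of 68 groups of 4 libraries examined over levels and ratios of the 10 genes, 2 held a library far from the other 3 by Dixon's criterion, where chance gives about 1 in 20. Mogat2 was 106 CPM in P6 ileum replicate 4, against 259 to 280.2 CPM in the others. The log2 ratio of Mttp to Apob per kilobase was -0.11 in P6 jejunum replicate 3, the library with the highest Apob, against 0.47 to 0.59 in the others. The regional difference of Apoc2 was larger at P6 than at P36 by 2.03 on the log2 scale in the test of the difference itself (edgeR, SE 0.58, adjusted p = 0.0397), on 4 to 7 counts a library in P6 ileum and 3 to 9 in P36 ileum.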

How the results depend on the processing

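The 9 genes higher in P6 jejunum were counted as 9 in every fit lacking 1 library, and the P36 count ran from 6 to 10. The P36 count past the fold minimum ran from 3 to 6, with 6 without P36 ileum replicate 1, and the ileal count of genes higher at P36 from 1 to 2, with 2 without P6 ileum replicate 4. The interaction count ran from 0 to 1, with or without the fold minimum, and was 0 in both forms with no filter. Past the fold minimum it was also 0 with library totals and with the mouse as a replicate block. The block called Apob at P36 (log2 difference 1.64) and changed no other call of a member. The P36 regional difference in share of counts ran from 1.19 to 1.52 percentage points, and was 1.24 (adjusted p = 0.0571, exact permutation test) without P36 jejunum replicate 1, where the regions still did not overlap. Values that changed sign had not passed the test. With library totals Sar1b in jejunum with age was 0.025 and the Apoa1 interaction -0.0058, which was -0.14 with the block. Both libraries left out gave a Dgat1 interaction of 0.0050. Over fits lacking 1 library the jejunal age value ran from -0.17 to 0.0042 for Mogat2 and from -0.15 to 0.083 for Sar1b, the ileal one from -0.080 to 0.49 for Apoc2 and from -0.094 to 0.50 for Mogat2, and the interaction from -0.29 to 0.51 for Mttp and from -0.47 to 0.58 for Apoa1. The log2 ratio of Dgat2 to Dgat1 between P36 regions ran from -0.14 to 0.18, and that of Sar1b to Sar1a in ileum with age from -0.15 to 0.090. Library totals moved the median of all genes from -0.05 to -0.33 at P6 and from -0.04 to -0.18 at P36, and the share of called genes that were higher in jejunum from 42.9 to 18.0% and from 51.5 to 37.8%. Genes called over the whole table then numbered 893 higher and 4077 lower in P6 jejunum (1495 and 1989 with TMM). The interaction called 1038 genes below (673 with TMM), and 760 above by DESeq2 or 979 without P6 ileum replicate 4 (494 in all libraries). Without P6 ileum replicate 4, 1885 and 2037 genes were called between P36 regions (1115 and 1048), and 661 in ileum without P36 jejunum replicate 1. Of the other values of single members, 1139 kept their direction and side of the limit, 61 lost the call and 9 gained it. Of the ratio values 209 were counted as kept, 13 lost the call and 1 gained it. The 13 came from fits lacking 1 library, in which the groups still did not overlap. For sign flips within mice, whose smallest p lies above the limit, kept refers to direction alone. Those flips cannot show whether a ratio call holds. The cause of the changed values and calls was not tested. Low counts limit Apoc2 and the minor apolipoproteins.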
